A study of Mus musculus with 5 samples.

Results

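The DNA replication and S phase genes are 32 genes whose products prepare, open and copy DNA and supply its building blocks. They were taken by gene symbol, from a list drawn up with earlier results of these data known, and all 32 were found among the 54532 genes of the table. RNA was sequenced from neurospheres, balls of dividing neural progenitors and the cells they give rise to, grown from the hippocampus of C57BL/6 mice at P0. The groups were 3 heterozygous libraries (hGFAPCre+, Arid1b flox/+) and 2 littermate control libraries (hGFAPCre+, Arid1b+/+). All 5 therefore carried the Cre transgene, which the human GFAP promoter drives in neural progenitors and their descendants, so only cells in which that promoter was active recombine the floxed allele. The cells of a mouse were plated in 2 wells with FGF-2 and EGF, each at 20 ng/ml, growth factors that keep progenitors dividing, and harvested on day 7. Whether each library is a separate mouse is not stated in the labels. The p-values therefore reflect how far these libraries spread, and part of that spread may be technical.

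DNA replication begins when origins are licensed in G1. The origin recognition complex, CDC6 and CDT1 load the ring-shaped MCM2-7 helicase onto DNA, and geminin, the product of Gmnn, blocks CDT1 once S phase has begun. CDC45 and the GINS complex then turn the loaded rings into active helicases, polymerase alpha with its primase lays down primers, and the sliding clamp PCNA holds the polymerases on DNA. Many of these genes are transcribed at the G1 to S transition by E2F factors, which is why their RNA is widely read as a sign of cycling cells. In a bulk culture, fewer cells in S phase and less RNA per cell cannot be told apart.

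The promoters of 6 members of the licensing and helicase groups are shown because they hold E2F binding words. The window of Mcm2 and the second window of Mcm7, of the same helicase, hold none. The words searched were TTTCCCGC, TTTCGCGC, TTTGCCGC and TTTGGCGC on either strand, and they stand in capitals below. Each window runs from 250 bases before to 50 bases after the RefSeq start (GRCm38.p6), 5′ to 3′ on the gene's own strand. Mcm3 is at chr1:20820263-20820562 (- strand), Mcm5 at chr8:75109259-75109558 (+ strand), Mcm6 at chr1:128359656-128359955 (- strand), the first of 2 Mcm7 windows at chr5:138171834-138172133 (- strand), Cdc6 at chr11:98907901-98908200 (+ strand) and Cdt1 at chr8:122567765-122568064 (+ strand).
Mcm3: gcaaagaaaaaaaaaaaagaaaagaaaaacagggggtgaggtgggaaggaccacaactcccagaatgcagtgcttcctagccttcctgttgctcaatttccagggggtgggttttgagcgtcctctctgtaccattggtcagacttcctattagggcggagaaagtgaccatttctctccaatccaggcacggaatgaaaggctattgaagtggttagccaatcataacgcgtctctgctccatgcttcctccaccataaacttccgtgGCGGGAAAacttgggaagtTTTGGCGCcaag
Mcm5: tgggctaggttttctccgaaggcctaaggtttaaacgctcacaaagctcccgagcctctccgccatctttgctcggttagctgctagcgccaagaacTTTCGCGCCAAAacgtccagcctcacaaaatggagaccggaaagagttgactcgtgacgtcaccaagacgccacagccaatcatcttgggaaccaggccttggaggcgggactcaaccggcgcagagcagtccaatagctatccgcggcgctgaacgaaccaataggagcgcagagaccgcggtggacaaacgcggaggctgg
Mcm6: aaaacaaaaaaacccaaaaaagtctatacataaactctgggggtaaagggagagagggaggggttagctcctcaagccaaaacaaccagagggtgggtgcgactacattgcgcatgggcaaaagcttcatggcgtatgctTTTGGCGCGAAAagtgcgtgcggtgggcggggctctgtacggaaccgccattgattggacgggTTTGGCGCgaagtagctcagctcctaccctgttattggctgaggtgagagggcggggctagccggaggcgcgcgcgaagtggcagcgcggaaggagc
Mcm7: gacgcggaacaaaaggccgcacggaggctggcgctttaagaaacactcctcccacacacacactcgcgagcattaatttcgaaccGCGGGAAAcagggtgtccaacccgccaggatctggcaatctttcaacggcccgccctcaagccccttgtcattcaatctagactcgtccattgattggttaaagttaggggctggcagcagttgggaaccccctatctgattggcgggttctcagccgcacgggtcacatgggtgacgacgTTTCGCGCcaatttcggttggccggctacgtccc
Cdc6: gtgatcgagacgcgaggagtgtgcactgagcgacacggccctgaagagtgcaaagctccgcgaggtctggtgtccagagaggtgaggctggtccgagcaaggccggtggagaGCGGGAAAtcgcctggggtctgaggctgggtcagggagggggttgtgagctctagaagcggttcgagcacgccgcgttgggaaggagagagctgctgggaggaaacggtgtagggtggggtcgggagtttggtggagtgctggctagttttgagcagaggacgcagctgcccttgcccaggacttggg
Cdt1: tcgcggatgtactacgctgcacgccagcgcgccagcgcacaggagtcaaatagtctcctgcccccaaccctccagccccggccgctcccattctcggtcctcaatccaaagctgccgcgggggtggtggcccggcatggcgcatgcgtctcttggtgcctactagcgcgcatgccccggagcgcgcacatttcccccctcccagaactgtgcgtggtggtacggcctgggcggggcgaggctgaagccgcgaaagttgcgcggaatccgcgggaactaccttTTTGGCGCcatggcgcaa
In Mcm5 and in Mcm6 a pair of words on opposite strands overlap, so 1 run of capitals holds 2 words.

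Of the 32 genes, 26 had a promoter window in the RefSeq table, and 11 of these 26 (42.3%) held an E2F word. They were Cdc6, Cdt1, Mcm3, Mcm5, Mcm6, Mcm7, Pola1, Uhrf1, Hells, Dtl and Clspn. The same words stood in promoters of 704 of all 27025 genes with a window (2.61%). They stood in those of 526 of the 11617 tested genes with a window (4.53%) and of 1 of 20 G2 and M phase genes (5%). The CCAAT box stood in 18 of the 26 (69.2%), against 41.1% of all genes with a window and 17 of 20 G2 and M phase genes (85.0%). The CHR words TTTGAA and TTCGAA are known from genes expressed late in the cell cycle. They stood in 5 of the 26 (19.2%), against 21.7% of all genes with a window and 16 of 20 G2 and M phase genes (80.0%). A word match is a description of letters, not of a bound site. Words of different sets overlapped in a single place, where the second E2F word of Mcm7 shares a base with a CCAAT box.

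**Figure D1:**
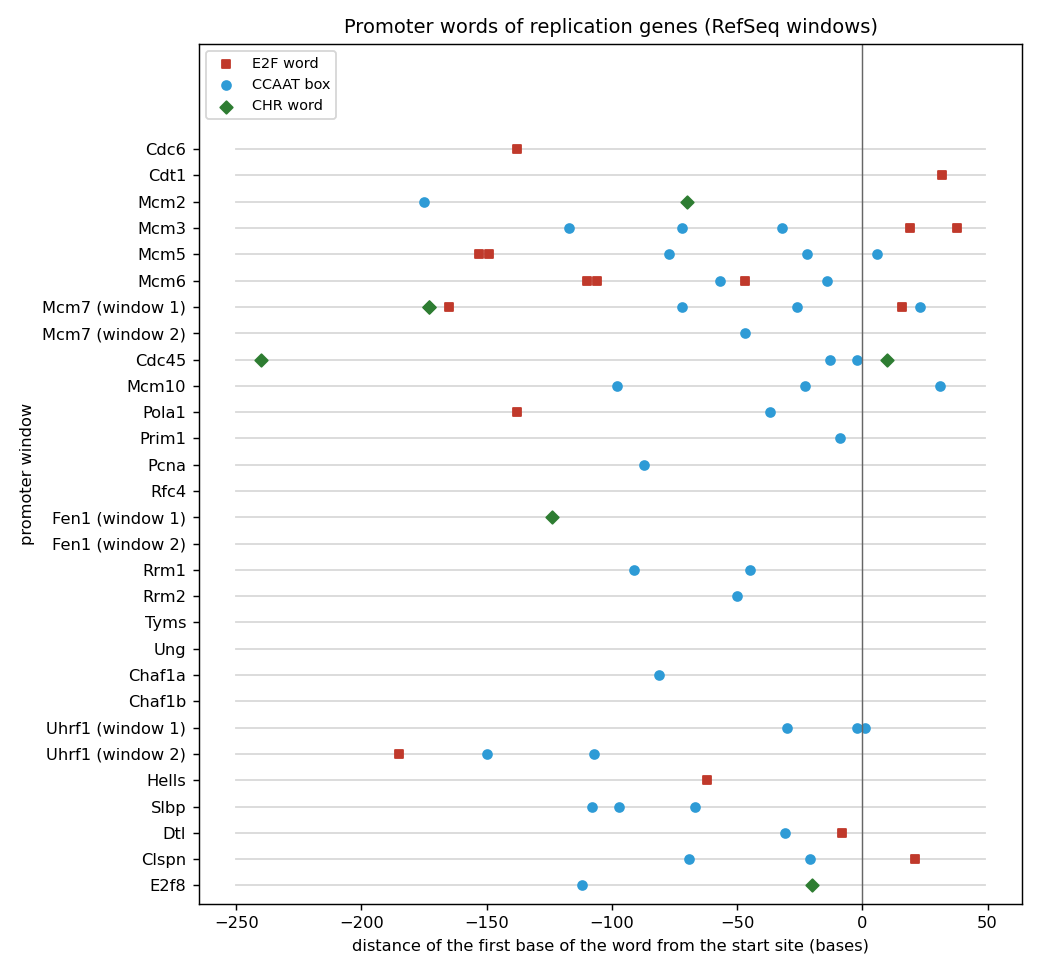
Position of E2F words, CCAAT boxes and CHR words in the promoter windows of the replication genes; the horizontal axis is the distance in bases of the first base of a word from the RefSeq start site, and each line is a window. E2F words stand in 11 of the 26 genes with a window.

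Arid1b, which encodes a DNA-binding part of the BAF remodeller and is the targeted gene (ENSMUSG00000069729, chromosome 17 from 4994332 to 5347656 of mm10, + strand), had 1102, 1145 and 1003 normalized counts in heterozygous replicates 1, 2 and 3, against 1510.4 and 1730.0 in control replicates 1 and 2. The groups did not overlap. The log2 fold change was -0.58 (SE 0.14), short of the threshold with limma (adjusted p = 0.0701) and edgeR (adjusted p = 0.0634), and past it with DESeq2 (adjusted p = 0.00729) and with either control left out. A gene-level count does not show which exons were lost. Recovered reads numbered 21136608 to 25167981 in heterozygous libraries and 19833803 to 25494722 in controls. Xist reads numbered 36851 in heterozygous replicate 2 and 1 to 301 in the other libraries, so that library differs in sex from the rest.

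Progenitor markers were expressed in every library, with 12 of 12 tested and a summed level of 199484 to 230340 normalized counts in heterozygous libraries against 165795 to 183646 in controls. Most genes of that list did not follow the sum. Their median log2 fold change was -0.50, beside 0.008 for all genes. DESeq2 called 6 of the 12 lower and 2 higher (7.01% and 7.15% of all genes). Hes5, a Notch target of that list, fell. Neuron markers summed to 42484 to 57019 in heterozygous libraries and 23151 to 31626 in controls, and limma called 6 of 12 higher (1.9% of all genes). Hypoxia-responsive genes summed to 36806 to 41127 in heterozygous libraries and to 136343 and 76501 in control replicates 1 and 2. Of these genes limma called 7 of 12 lower (0.944% of all genes). The summed levels were 74962 to 91147 against 105558 to 133601 for 8 astrocyte markers, of which limma called 1 lower. They were 57159 to 73115 against 51992 to 83263 for 8 oligodendrocyte lineage markers, of which limma called 1 lower. For microglia they were 71.3 to 375 against 58.2 to 102, for endothelium 75.0 to 165 against 49.7 to 130, and for mesenchyme 98.4 to 224 against 86.7 to 306, where limma and edgeR called none, 1 microglial and 1 endothelial gene had an unadjusted p under 0.05, and DESeq2 called 1 gene, C1qa. Neuron sums were thus higher in each heterozygous library than in either control and hypoxia and astrocyte sums lower, while the groups overlapped for the other 4 types of non-progenitor cell. No defining marker was at 0 in all libraries. The part of these cell types and of hypoxia in the values below was not tested.

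Every one of the 32 replication genes had its 3 heterozygous libraries between the 2 controls, below control replicate 2 and above control replicate 1, on the deposited scale. Quantile scaling left 31 in this order, since Pcna in heterozygous replicate 3 then passed control replicate 2 (6143 against 6082 normalized counts). Over all 16411 genes tested, 18.2% had the heterozygous libraries between the controls in either order, and 10.6% in this order. Control replicate 2 was higher than control replicate 1 for all 32 genes (51.5% of all genes) and more than 2-fold higher for 30 of them (8.72% of all genes). Rfc4 at 1.83-fold and Slbp at 1.95-fold were the other two. The median ratio of control replicate 2 to control replicate 1 was 3.70, from 1.83 for Rfc4 to 10.9 for Fen1. On the log2(normalized count + 1) scale the median difference was 1.88 for the replication genes and 0.02 for all genes. This is 1 library against 1, so it has no replicate check.

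**Figure D2:**
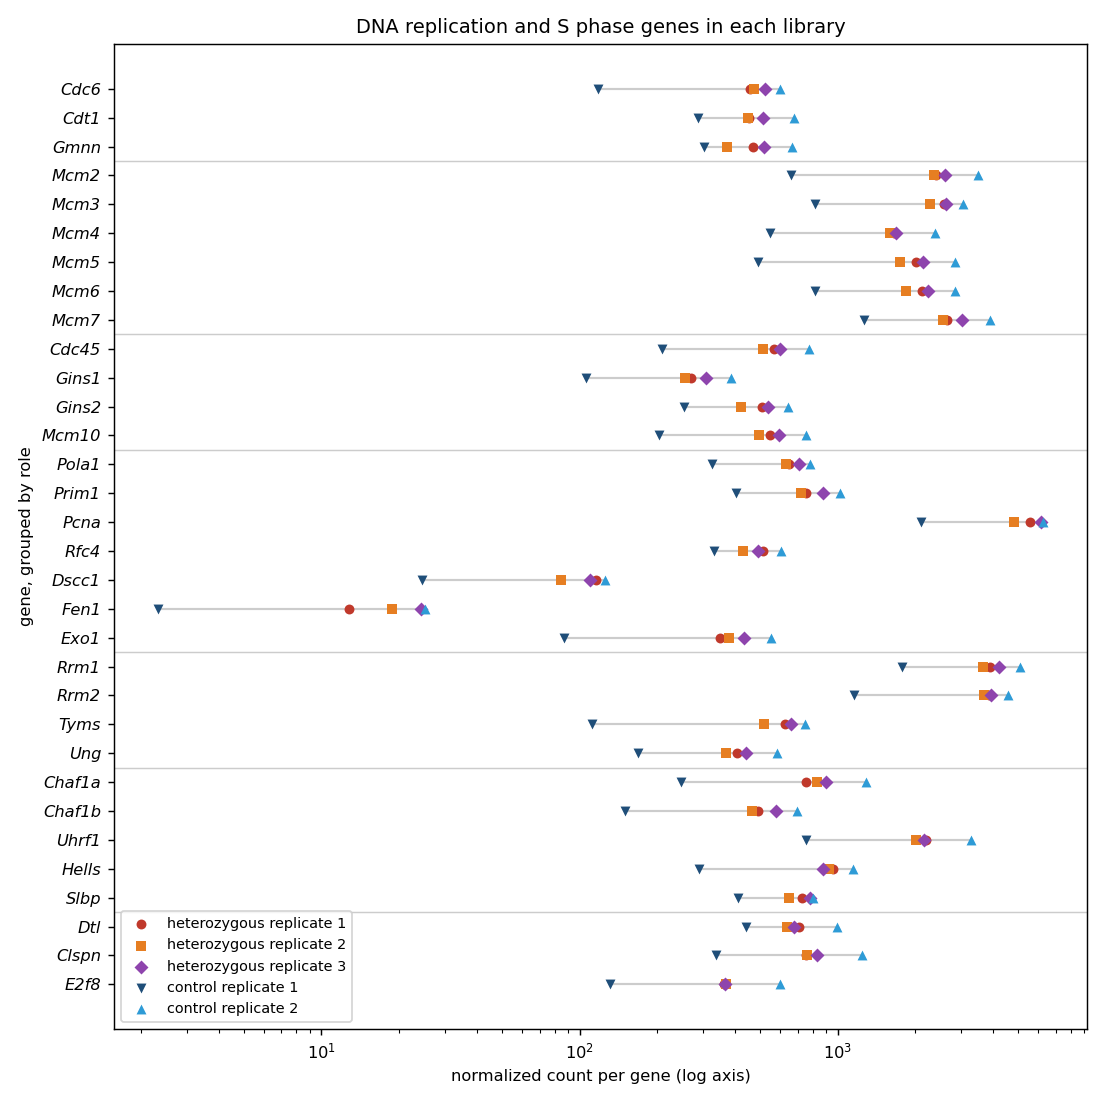
Normalized count of each replication gene in each library, on a log axis, grouped by role; red, orange and purple symbols are heterozygous replicates 1, 2 and 3 and blue triangles are control replicates 1 and 2. In all 32 genes the heterozygous symbols lie between the control triangles on this deposited scale, while quantile scaling leaves 31 so.

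The average level of the heterozygous libraries was nearer to control replicate 2. Their mean was 2.68 times control replicate 1 at the median gene (from 1.44 for Rfc4 to 8.0 for Fen1) and 0.724 times control replicate 2 (from 0.613 for E2f8 to 0.895 for Slbp). The 32 genes summed to 40396.9, 37338.9 and 43082.6 normalized counts in heterozygous replicates 1, 2 and 3, against 15324.4 and 53496.6 in control replicates 1 and 2. That was 0.180%, 0.167% and 0.189% of reads in heterozygous replicates 1, 2 and 3, against 0.0664% and 0.232% in control replicates 1 and 2. The heterozygous libraries spread about as much as for other genes, with a median coefficient of variation of 8.95% over the 32 genes and of 9.38% over all genes. Heterozygous replicate 2 was the lowest of the 3 in 25 genes and heterozygous replicate 3 the highest in 26.

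With both controls in the fit, none of the 32 genes passed the threshold in limma, where 1.90% of all genes were called higher and 0.944% lower in heterozygous libraries. None passed at an unadjusted p under 0.05 either, where 4286 of all genes did. On the recovered reads, edgeR called 1.46% of all genes higher and 1.03% lower, DESeq2 called 7.15% higher and 7.01% lower, and neither called a replication gene. The authors' deposited table gave 6.32% higher and 5.99% lower, again with none of the 32. The smallest adjusted p was 0.385 in limma (Tyms), 0.567 in edgeR and 0.556 in DESeq2 (Pcna in both). Log2 fold changes, heterozygous over control, were positive for 31 genes and negative for Gmnn, with a median of 0.46 beside 0.008 for all genes. That median depends on how the 2 unequal controls are averaged. limma averages log values, while the log2 ratio of arithmetic means had a median of 0.19, edgeR of 0.18 and DESeq2 of 0.19. In the authors' deposited table the log2 fold changes ran from -0.09 for Gmnn to 0.34 for Pcna.

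The direction followed the control that was used. Without control replicate 1 the fold changes of all 32 genes were negative, with a median of -0.47, and 12 fell (7.68% of all genes were called lower and 9.3% higher). These were Cdt1, Mcm2, Mcm4, Mcm5, Mcm6, Mcm7, Ung, Chaf1a, Uhrf1, Dtl, Clspn and E2f8. Without control replicate 2 all 32 rose, with a median of 1.41 (27.2% of all genes were called higher and 23.5% lower). In both fits the remaining control is assumed to vary like the heterozygous libraries. Because the heterozygous libraries lay between the controls for every gene, the opposite signs restate that order and are no separate evidence.

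**Figure D3:**
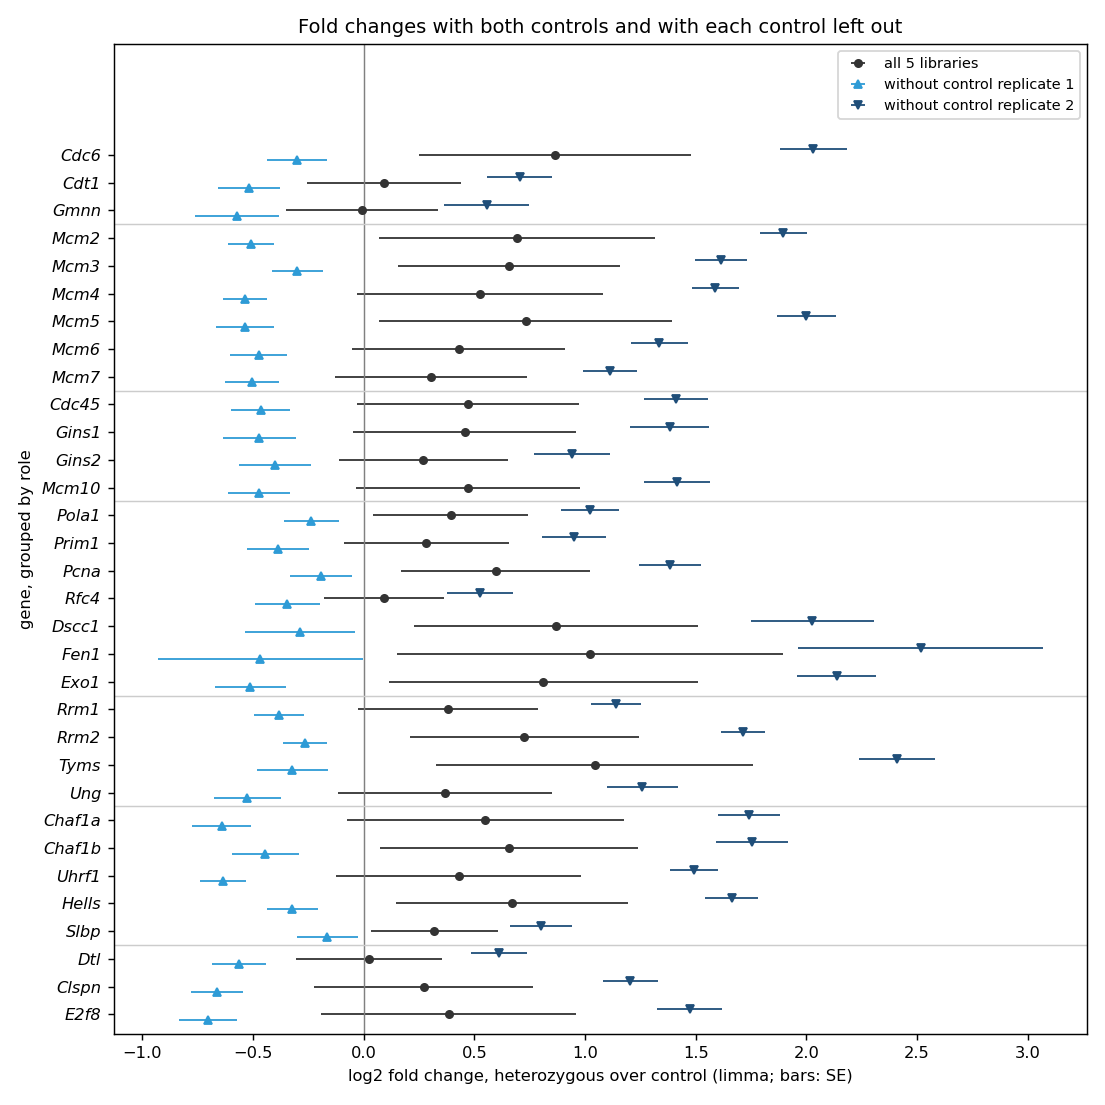
Log2 fold change, heterozygous over control, of each replication gene from limma with all 5 libraries (black), without control replicate 1 (light blue) and without control replicate 2 (dark blue); bars are standard errors. The median of the 32 genes was 0.46, -0.47 and 1.41 in the 3 fits.

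Among the licensing factors, Cdt1 and Gmnn had group means close to each other, 472 ± 37.7 and 453 ± 74.2 in heterozygous libraries (SD, n = 3) against 482 ± 273 and 486 ± 256 in controls (SD, n = 2). Cdc6, the ATPase that recruits the helicase loader, had 456, 475 and 521 normalized counts in heterozygous libraries against 118 and 596 in controls, and its log2 fold change was 0.86 (SE 0.61, limma adjusted p = 0.40), but -0.30 with control replicate 1 left out and 2.03 with control replicate 2 left out. Cdt1, which brings MCM2-7 to the origin, had 452, 448 and 515 against 289 and 675 (log2 fold change 0.09, SE 0.35, limma adjusted p = 0.880). Gmnn had 471, 371 and 516 against 305 and 666 (log2 fold change -0.01, SE 0.34, limma adjusted p = 0.991). For all 3 the controls enclosed the heterozygous values. Cdc6 differed 5.07-fold between the controls, while Cdt1 differed 2.34-fold and Gmnn 2.19-fold. The balance of Cdt1 to its inhibitor varied less: per kilobase of transcript, the ratio of Cdt1 to Gmnn was 0.495, 0.621 and 0.514 in heterozygous libraries and 0.487 and 0.522 in controls. The ratio of Cdc6 to Cdt1 per kilobase was 0.861, 0.908 and 0.865 in heterozygous libraries and 0.348 and 0.755 in controls. It was higher in each heterozygous library than in either control, which with 3 against 2 libraries is a description.

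The 6 MCM2-7 genes, which encode the subunits of the replicative helicase ring, shared the same order of libraries. Mcm2 had 2395, 2371 and 2595 normalized counts in heterozygous libraries (2454 ± 123, SD, n = 3) against 659 and 3489.7 in controls (2074 ± 2002, SD, n = 2). Mcm3 had 2591, 2285 and 2630.3 in heterozygous libraries against 816 and 3074 in controls. Mcm4 had 1648, 1593 and 1689 against 546 and 2384. In each of these genes the SD of the controls was many times that of the heterozygous libraries, and the groups overlapped. Mcm5 had 2015, 1749 and 2144 in heterozygous libraries against 489.9 and 2849.5 in controls, the widest gap between controls in the ring at 5.82-fold. Mcm6 had 2122, 1838 and 2231 against 815 and 2859. Mcm7 had 2647, 2553 and 3024 against 1264 and 3879, the narrowest gap at 3.07-fold. Log2 fold changes with all libraries ran from 0.30 for Mcm7 (SE 0.43, limma adjusted p = 0.673) to 0.73 for Mcm5 (SE 0.66, limma adjusted p = 0.504).

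Leaving out a control gave calls in opposite directions. Without control replicate 1, 5 of the 6 MCM2-7 genes fell, by 0.48 (Mcm6, limma adjusted p = 0.0408) to 0.54 (Mcm5, limma adjusted p = 0.0281) on the log2 scale, and Mcm3 had -0.30 (limma adjusted p = 0.116). Without control replicate 2, all 6 rose, by 1.11 (Mcm7, limma adjusted p = 0.000296) to 2.00 (Mcm5, limma adjusted p = 5.29e-05). Per kilobase, Mcm7 was the highest of the 6 in every library, and the highest subunit exceeded the lowest by 1.95, 1.94 and 2.17 times in heterozygous libraries against 2.94 and 1.97 times in controls. The lowest was Mcm4 in the heterozygous libraries and control replicate 2, and Mcm5 in control replicate 1.

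The genes of helicase activation behaved alike. Cdc45, part of the active helicase, had 569, 515 and 596 normalized counts in heterozygous libraries against 209 and 772 in controls (log2 fold change 0.47, limma adjusted p = 0.568). Gins1 had 271, 256 and 308 against 106 and 386, and Gins2, another GINS subunit, had 510.0, 422 and 539.7 against 254 and 645. Mcm10, a factor needed to start unwinding, had 546, 498 and 594 against 204 and 757. None of the 4 passed without control replicate 1, where Cdc45 was closest (log2 fold change -0.47, limma adjusted p = 0.0504). Exons of the neighbouring gene Gse1 cover 67.3% of the exon bases of Gins2, so its reads may be shared.

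Genes of DNA synthesis and of flap processing included the most abundant and the scarcest members. Pcna had 5572, 4815 and 6114 normalized counts in heterozygous libraries (5500.4 ± 653, SD, n = 3) against 2096 and 6259.8 in controls (4178 ± 2944, SD, n = 2), and its log2 fold change was 0.60 (SE 0.43, limma adjusted p = 0.403). Per kilobase it was the highest of the 32 genes in every library. Heterozygous replicate 3 nearly reached control replicate 2 for this gene. Pola1, the catalytic subunit of polymerase alpha on the X chromosome, had 649, 633 and 707 against 326 and 781, and Prim1, the primase that works with it, had 755, 721 and 878 against 404 and 1022. The ratio of Prim1 to Pola1 per kilobase was 3.93, 3.85 and 4.19 in heterozygous libraries and 4.19 and 4.42 in controls, so this pair kept nearly the same balance. Rfc4, a subunit of the clamp loader, showed the smallest gap between controls, with 512, 430.0 and 490.0 against 330.5 and 605 (log2 fold change 0.09, SE 0.27, limma adjusted p = 0.85). Dscc1, of an alternative clamp loader, had 116, 84.6 and 110.1 against 24.4 and 126.

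The exonuclease Exo1, which also acts in mismatch repair, had 349, 381 and 435 normalized counts in heterozygous libraries against 87.3 and 553 in controls, a 6.33-fold gap between the controls. Fen1, the flap endonuclease that trims Okazaki fragments, had only 12.8, 18.7 and 24.4 against 2.33 and 25.3. Its control values rest on 28 and 2 reads in control replicates 2 and 1, a ratio of 10.9 with an exact 95% counting interval of 2.74 to 94.1. Opposite-strand genes cover 84.2% of the exon bases of Fen1, and whether counting used the strand is not given in the sources used here, so its level is uncertain. None of the 7 genes of synthesis and processing passed without control replicate 1, and all 7 rose without control replicate 2.

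The genes of nucleotide supply and uracil removal include Tyms, Rrm1, Rrm2 and Ung. Tyms, thymidylate synthase, had 624, 516 and 662 normalized counts in heterozygous libraries (601 ± 75.7, SD, n = 3) against 112 and 748 in controls (429.7 ± 449.6, SD, n = 2). Its log2 fold change was 1.04 (SE 0.72, limma adjusted p = 0.385), but -0.32 with control replicate 1 left out and 2.41 with control replicate 2 left out. Rrm1 and Rrm2 encode the large and the small subunit of ribonucleotide reductase, which makes deoxynucleotides. Rrm1 had 3898, 3657 and 4213 against 1776 and 5104, and Rrm2 had 3848, 3689 and 3921 against 1163 and 4588. The ratio of Rrm2 to Rrm1 per kilobase was 1.80, 1.84 and 1.70 in heterozygous libraries and 1.19 and 1.64 in controls. Each heterozygous library was above both controls, which is again only a description. Ung, which removes uracil from DNA, had 408, 369 and 442 against 169 and 583.

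Chromatin factors that act behind the fork included the member that fell with the smallest adjusted p once control replicate 1 was left out. Uhrf1, which guides maintenance DNA methylation, had 2199.6, 2014 and 2168 normalized counts in heterozygous libraries against 755 and 3301 in controls. With all libraries its log2 fold change was 0.43 (SE 0.55, limma adjusted p = 0.642), and without control replicate 1 it fell by 0.63 (limma adjusted p = 0.00797). Chaf1a and Chaf1b encode subunits of the histone chaperone CAF-1. Chaf1a had 754, 832 and 903 against 247 and 1291, and Chaf1b had 492, 467 and 576 against 150.1 and 693. Their per-kilobase ratio, Chaf1a to Chaf1b, stayed between 0.532 and 0.619 in heterozygous libraries and was 0.571 and 0.647 in controls. Hells, a chromatin remodeller, had 960.3, 923 and 875 against 289.8 and 1148. Slbp, which binds the stem-loop of histone mRNA, had 726, 647 and 782 against 411 and 803 (log2 fold change 0.32, SE 0.29, limma adjusted p = 0.502), and its heterozygous mean came closest to control replicate 2. Exons of Ubxn6 cover 52.5% of the exon bases of Chaf1a.

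All 3 genes of S phase control fell without control replicate 1, the only role group of which each member did. Dtl, whose product directs the destruction of CDT1 during S phase, had 708, 637 and 680.0 normalized counts in heterozygous libraries against 441 and 998 in controls (log2 fold change 0.02, SE 0.33, limma adjusted p = 0.968). Clspn, the checkpoint mediator claspin, had 757, 761 and 830.0 against 339 and 1239. E2f8, a repressor of E2F targets, had 363, 369 and 367 (367 ± 3.27, SD, n = 3) against 131 and 598 (365 ± 329.7, SD, n = 2). The heterozygous libraries of E2f8 had a coefficient of variation of 0.892%, the smallest of the 32 genes, and their mean nearly equalled that of the controls, which differed 4.55-fold. Its log2 fold change was 0.38 (SE 0.57, limma adjusted p = 0.689) with all libraries, -0.70 (limma adjusted p = 0.0123) without control replicate 1 and 1.47 (limma adjusted p = 0.00021) without control replicate 2.

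The roles differed in where the heterozygous libraries lay between the controls. On the log2 scale, with control replicate 1 at 0% and control replicate 2 at 100%, the median gene stood at 75.0%, 68.6% and 81.7% in heterozygous replicates 1, 2 and 3. Licensing factors stood at 55.5%, 51.7% and 68.2% and genes of S phase control at 62.0%, 62.4% and 67.8%, medians below those of the other roles in each library. The licensing median hides a split, since Cdc6 stood at 83.4%, 86.1% and 91.7%, and the low position was that of Cdt1 and Gmnn. Synthesis and processing genes stood at 75.1%, 76.0% and 88.6%, and nucleotide genes at 80.8%, 74.4% and 85.2%. These are descriptions of 3 to 7 genes per role, and differences between roles were not tested. The gap between controls had a median on the log2 scale of 1.87 in the 11 genes with an E2F word (1.18 to 2.54), of 1.89 in those with a window but no word (0.87 to 2.98) and of 1.99 in those with no window (1.13 to 2.65).

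**Figure D4:**
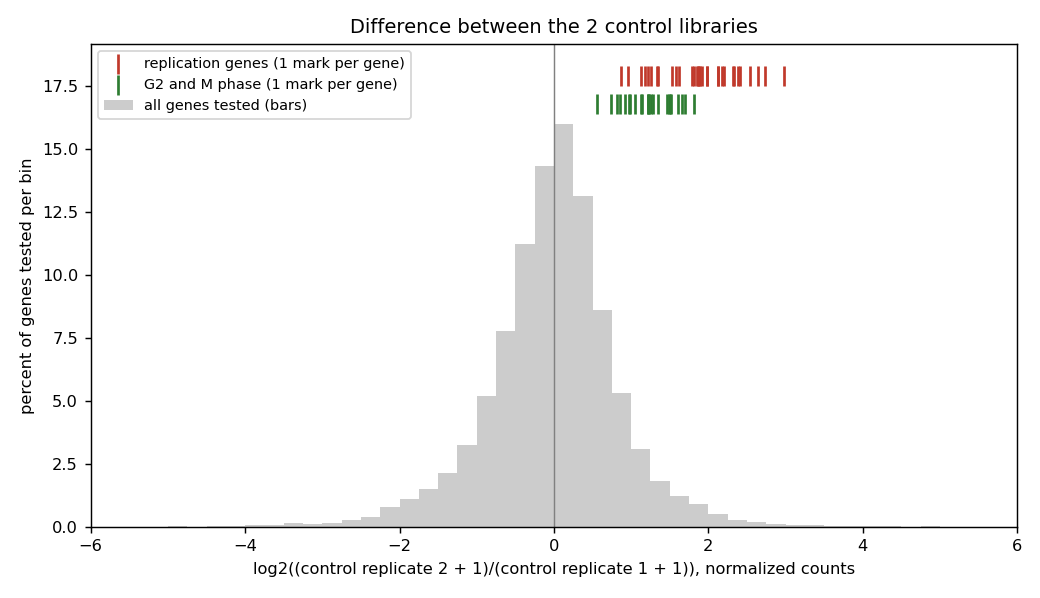
Log2 difference of control replicate 2 over control replicate 1 for the 32 replication genes (red marks), the 24 G2 and M phase genes (green marks) and all 16411 genes tested (grey bars, percent of genes per bin). All red and green marks lie to the right of 0, while the median of all genes is 0.02.

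Other cell cycle genes were compared in 8 lists with 148 tested genes, none of which is a member. limma called none of the 148 with all libraries (1.90% of all genes higher and 0.944% lower). With limma, 15 had an unadjusted p under 0.05, against 4286 of all 16411 genes. edgeR called none (1.46% of all genes higher and 1.03% lower). DESeq2 called 3 higher and 5 lower (7.15% and 7.01% of all genes), and the 3 higher were histone genes. Origin recognition and firing genes, 19 tested, had a median log2 fold change of 0.03, with Orc3 at -0.26 (limma adjusted p = 0.229). The 29 further polymerase, clamp loader and fork genes had a median of 0.07, with Rnaseh2a, of an enzyme that removes ribonucleotides from DNA, at -0.55 (limma adjusted p = 0.120). The 16 further nucleotide supply genes had a median of 0.15, with Samhd1, which degrades deoxynucleotides, at -0.43 (limma adjusted p = 0.116). The medians of these 3 lists were nearer to 0 than the 0.46 of the replication genes. The lists shared the control difference, to a smaller degree. Control replicate 2 was above control replicate 1 in 17 of 19, 28 of 29 and 13 of 16 genes (51.5% of all genes). The median log2 differences were 0.88, 0.96 and 0.80. Median fold changes were -0.31, -0.41 and -0.19 without control replicate 1, and 0.49, 0.43 and 0.62 without control replicate 2. The 17 E2F, RB and DREAM genes had a median of -0.03 and the 11 checkpoint genes -0.06. Among the latter, the checkpoint kinase Atr was at -0.84 (limma adjusted p = 0.106), and DESeq2 called Atr lower (7.01% of all genes).

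G2 and M phase genes shared the direction of the control difference with the replication genes. All 24 were higher in control replicate 2 than in control replicate 1 (51.5% of all genes). The median log2 difference was 1.23 beside 1.88 for the replication genes. For 21 of the 24, all heterozygous libraries lay between the controls (18.2% of all genes). Their heterozygous libraries stood at a median of 41.8% of the way to control replicate 2. The median log2 fold change was -0.10 with all libraries. Without control replicate 1, 22 of 24 fell, and without control replicate 2, 17 of 24 rose. The summed replication genes divided by the summed G2 and M phase genes gave 0.897, 0.932 and 0.930 in heterozygous libraries and 0.520 and 0.758 in controls, so the ratio was higher in each heterozygous library than in either control. With 3 against 2 libraries this ratio is given as a description.

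The CDK inhibitors, which hold cells out of S phase, were mixed between the controls. Of 7 tested genes, 3 were higher in control replicate 2, and the median log2 difference of control replicate 2 over control replicate 1 was -0.51. Cdkn1c had 36.2, 25.8 and 24.4 normalized counts in heterozygous libraries against 356 and 89.4 in controls (log2 fold change -2.61, limma adjusted p = 0.064). Cdkn1b had 2840, 2690 and 2637 against 7109 and 3851 (log2 fold change -0.94, limma adjusted p = 0.089). Both are named because their limma p was the smallest of the list. In both genes the groups did not overlap, and DESeq2 called both lower (7.01% of all genes). They were the only 2 of the 7 with all heterozygous libraries below both controls. Another 3 had them between the controls (18.2% of all genes). Replication-dependent histone genes, whose RNA is mostly without a poly(A) tail, had 25 of 70 tested, with a median of 0.48. They summed to 5639, 5730.1 and 6116 in heterozygous libraries and to 5262 and 5297 in controls, so the controls, unlike for the replication genes, differed little. Hist1h1e had a log2 fold change of 1.60 (limma adjusted p = 0.066) and Hist2h2be of -0.90 (limma adjusted p = 0.088).

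**Figure D5:**
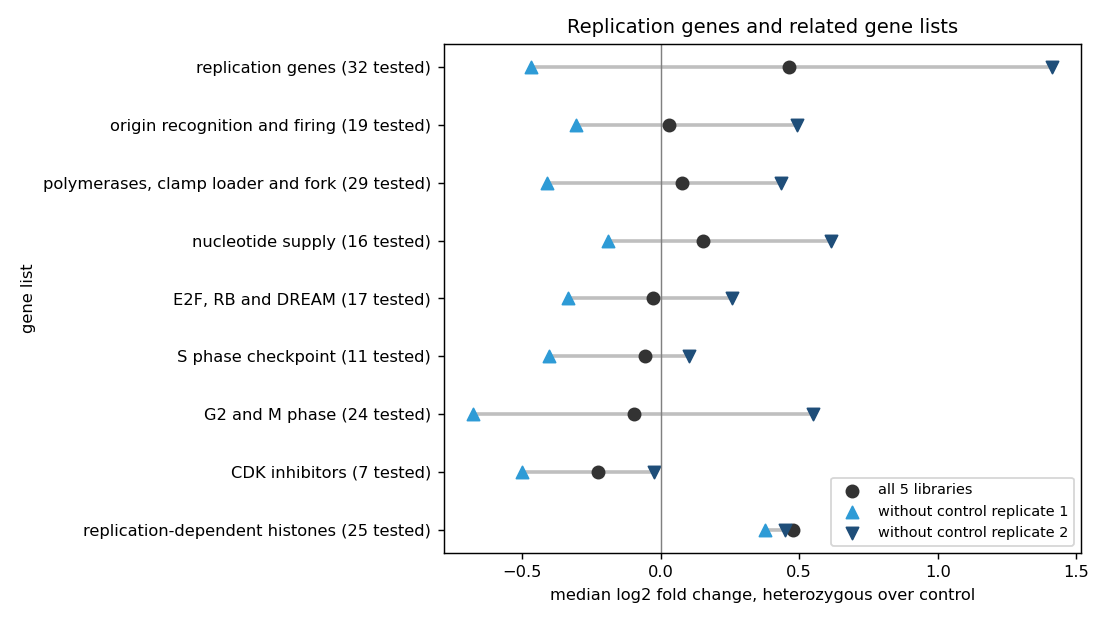
Median log2 fold change, heterozygous over control, of the replication genes and 8 related lists with all 5 libraries (black), without control replicate 1 (light blue) and without control replicate 2 (dark blue). The replication genes span -0.47 to 1.41, the G2 and M phase genes -0.68 to 0.55.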

How the data were processed

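RNA was sequenced in 5 neurosphere libraries, 3 heterozygous and 2 control, grouped by the genotype in the labels. STAR, DESeq2 and mm10 are named in the submitters' processing notes, with versions, counting tool and strand setting not given in the sources used here. Each deposited value is a normalized count, a signal that the authors made by dividing the reads of a gene by 1 size factor per library. With a tolerance of 0.001 read, 100% of values gave whole reads. Also deposited are the authors' log2 fold change, its standard error and Wald statistic (a score), p-value and adjusted p-value.

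Here, log2(normalized count + 1) was tested with limma 3.58.1 (R 4.3.3) with an intensity trend, two-sided, for 16411 genes whose mean reached 10, with Benjamini-Hochberg adjustment at 0.05. This scale understates the change of low genes. Recovered reads were tested with edgeR 4.0.16 (quasi-likelihood) and DESeq2 1.42.0. All fits were tested on simulated data. The simulated controls had the same expected levels, so this does not show how the fits behave with controls that differ as these do. Levels per kilobase use the principal transcript of GENCODE release M21. Percent positions, ratios and sums carry no test. No library column was left unused. Exact counting intervals cover counting error only.

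The members and all lists were chosen with earlier results of these data known. Every member is named. Of each related list, called genes or otherwise those with the smallest p are named, and genes named as called by DESeq2 follow the same rule. The pathway lists hold no member. One marker gene that this rule takes is not reported here.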

Additional observations from a re-analysis of the deposited data

How the results depend on the processing

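All 32 genes had their heterozygous libraries between the controls under TMM and per-million scaling and under pseudocounts of 0.5 and 5, and 31 under quantile scaling, with Pcna the exception. The median log2 control difference stayed at 1.78 to 1.90 under these alternatives, which were chosen after seeing the data. limma called 311 genes higher and 155 lower over the whole table. DESeq2 called 1174 higher and 1151 lower, limma without the intensity trend 54 and 21, and limma with library weights 79 and 38. With 1 library left out, between 0 and 4477 were called higher and between 0 and 3868 lower. Of the replication genes, 0 to 32 were then called higher and 0 to 12 lower, and their median ran from -0.47 to 1.41. Arid1b passed with DESeq2 (-0.59), not with edgeR, and ran from -0.68 to -0.48 with 1 library left out. The replicate numbers are not shown to pair the libraries: the correlations of deviations between libraries of the same number were 0.028 and -0.040. With the replicate block, limma called 0 genes higher and 1 lower, no replication gene, and the median of the replication genes was 0.41.

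With edgeR and with DESeq2 the fold change turned negative for Cdt1 (-0.039 and -0.035), Dtl (-0.10 and -0.10) and Clspn (-0.016 and -0.011). The log2 ratio of arithmetic means was also negative for Cdt1 (-0.030), Dtl (-0.091) and Clspn (-0.011), while limma averages log values. Leaving out 1 library gave, for each gene, a range whose ends came from the fits that left out a control. It was -0.30 to 2.03 for Cdc6, -0.52 to 0.70 for Cdt1, -0.57 to 0.56 for Gmnn, -0.51 to 1.89 for Mcm2, -0.30 to 1.61 for Mcm3, -0.54 to 1.59 for Mcm4, -0.54 to 2.00 for Mcm5, -0.48 to 1.34 for Mcm6 and -0.50 to 1.11 for Mcm7. It was -0.47 to 1.41 for Cdc45, -0.47 to 1.38 for Gins1, -0.40 to 0.94 for Gins2, -0.47 to 1.41 for Mcm10, -0.24 to 1.02 for Pola1, -0.39 to 0.95 for Prim1, -0.19 to 1.38 for Pcna, -0.34 to 0.53 for Rfc4, -0.29 to 2.03 for Dscc1, -0.47 to 2.51 for Fen1 and -0.51 to 2.14 for Exo1. It was -0.38 to 1.14 for Rrm1, -0.26 to 1.71 for Rrm2, -0.32 to 2.41 for Tyms, -0.52 to 1.26 for Ung, -0.64 to 1.74 for Chaf1a, -0.44 to 1.76 for Chaf1b, -0.63 to 1.49 for Uhrf1, -0.32 to 1.66 for Hells, -0.16 to 0.80 for Slbp, -0.56 to 0.61 for Dtl, -0.66 to 1.21 for Clspn and -0.70 to 1.47 for E2f8.

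Each comparison is limited by 2 controls that differ strongly. Depth limits Fen1 most among the 32 genes, with 2 reads in control replicate 1.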
